A study of Mus musculus with 8 samples.

Results

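Glucose uptake, glycolysis, lactate handling and the response to low oxygen were followed through 36 of the 55401 genes in the deposited count table. The genes were taken by mouse symbol and matched to the Ensembl identifiers of the table with the GENCODE M21 annotation. Of these, 21 act in glucose uptake, glycolysis and lactate handling, and 15 are regulators or targets of the hypoxia-inducible factor (HIF). All 36 were among the 17470 genes that passed the filter on low counts and were tested.

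Glycolysis splits glucose into pyruvate in the cytosol, and lactate dehydrogenase turns pyruvate into lactate, which leaves the cell through a monocarboxylate transporter. HIF is a pair of proteins whose alpha subunit is hydroxylated by oxygen-dependent prolyl hydroxylases and then degraded, so that it builds up when oxygen is low. HIF binds a short core motif in DNA and raises many genes of glucose uptake and glycolysis. Macrophages stimulated with the bacterial product LPS are known to turn to aerobic glycolysis, and HIF-1 alpha is one of the factors that builds up in them at normal oxygen.

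The cells were bone marrow-derived macrophages (BMDM, grown from mouse bone marrow) of Mettl3fl/fl mice, in which loxP sites flank the gene of the catalytic subunit of the m6A writer of mRNA. WT here means Mettl3fl/fl without Cre, and KO means Lyz2-Cre-Mettl3fl/fl, in which the myeloid Lyz2 promoter drives Cre recombinase. Only KO cells carried Cre, so loss of Mettl3 and the presence of Cre cannot be told apart. Cells of each genotype received PBS, or 50 ng/ml LPS overnight and then 10 µM nigericin, a potassium ionophore that triggers the NLRP3 inflammasome, for 3 h per the sample labels, while the text of the series names 1 h or 3 h. No group received LPS alone or nigericin alone, so the effects of LPS and of nigericin cannot be told apart. Each of the 4 groups had 2 libraries with 55032057 to 65487739 counts each. No source says whether the libraries of a group were separate cultures or mice, and p-values therefore describe the spread between libraries, which can be technical.

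Levels are given as CPM (counts per 1000000, with library sizes adjusted by edgeR's composition factors), in the order of the libraries 1 and 2 of each group. Changes are log2 fold changes with their standard error (SE, n = 2 per group) from 1 edgeR quasi-likelihood fit over all 8 libraries. A gene is called where the Benjamini-Hochberg adjusted p over all tested genes is under 0.05. Mettl3, the deleted gene, stood at 13.6 and 13.3 CPM in WT with PBS against 5.63 and 6.33 in KO, and at 28.2 and 23.4 after stimulation in WT against 9.08 and 7.87 in KO. All 8 macrophage markers were tested, with a summed level of 10054 to 14059 CPM, and the markers Ly6g, Flt3, Cd3e and Tpsb2 had 0 counts in all 8 libraries. Other markers of the same cell types were present at low levels, and 6 of 8 for neutrophils, 5 of 8 for dendritic cells, 3 of 7 for T and NK cells and 1 of 5 for mast cells and basophils passed the filter. Markers of fibroblasts and stroma were present. Their 8 genes summed to 177 and 198 CPM in WT with PBS, 276 and 295 in KO with PBS, 130.1 and 127 in stimulated WT and 368 and 329 in stimulated KO. In bulk RNA, fewer cells of a type and less RNA per cell cannot be told apart.

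The stretches upstream of 4 members are shown. They were taken in order of adjusted p of the WT response among lactate and HIF members with the HIF core motif. The motif was searched as ACGTG and GCGTG on both strands (read as CACGT and CACGC on the strand shown) in RefSeq windows of GRCm38.p6. Of the 35 members with a window, 32 held the motif at a start site, counting each gene by the window with most matches. Among all 11115 tested genes with a window, 65.3% held it, and among all 32851 windows 43.8% did. Ndrg1 had no entry. The sequences are the 250 bases before the start, 5′ to 3′ on the strand of the gene, with the motif in capitals. In a run of 6 capitals, 1 match on each strand overlap in the palindrome CACGTG and count as 2.
Ldha: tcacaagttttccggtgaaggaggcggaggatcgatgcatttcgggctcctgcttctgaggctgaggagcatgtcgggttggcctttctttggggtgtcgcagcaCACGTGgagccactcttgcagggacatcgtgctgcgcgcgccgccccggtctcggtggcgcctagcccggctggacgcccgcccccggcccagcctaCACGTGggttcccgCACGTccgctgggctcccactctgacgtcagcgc
P4ha1: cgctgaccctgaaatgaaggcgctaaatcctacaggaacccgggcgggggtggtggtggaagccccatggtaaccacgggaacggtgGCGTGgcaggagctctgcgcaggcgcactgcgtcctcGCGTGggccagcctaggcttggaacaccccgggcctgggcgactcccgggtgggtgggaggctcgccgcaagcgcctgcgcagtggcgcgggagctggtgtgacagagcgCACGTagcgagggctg
Mxi1: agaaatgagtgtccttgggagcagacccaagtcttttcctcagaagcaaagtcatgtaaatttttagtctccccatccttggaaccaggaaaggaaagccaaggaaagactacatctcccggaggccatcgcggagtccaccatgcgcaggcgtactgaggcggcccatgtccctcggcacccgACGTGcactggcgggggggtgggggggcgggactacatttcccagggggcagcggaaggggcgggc
Vegfa: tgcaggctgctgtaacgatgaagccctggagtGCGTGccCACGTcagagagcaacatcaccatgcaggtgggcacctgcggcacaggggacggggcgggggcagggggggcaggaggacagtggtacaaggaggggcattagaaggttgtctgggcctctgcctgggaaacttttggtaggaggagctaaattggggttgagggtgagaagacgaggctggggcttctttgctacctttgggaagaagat

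The Ldha stretch (chr7:46845554-46845803, plus strand) lies inside the gene upstream of an internal start and holds 5 matches. The P4ha1 stretch (chr10:59323046-59323295, plus strand) lies just outside the gene and holds 3. Mxi1 has 1 match in the stretch before an internal start (chr19:53329163-53329412, plus strand), and a second internal start also has 1. The window at the upstream start of Mxi1 has 0. In Vegfa the 2 matches lie before an internal start (chr17:46025164-46025413, minus strand), where the annotation has a coding exon of the gene, and the window at the upstream start has 0. Ldha and P4ha1 rose after stimulation and Mxi1 and Vegfa fell, in both genotypes. A match describes the letters and is no evidence of binding.

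After LPS and nigericin, 18 of the 36 genes rose and 7 fell in WT macrophages, where 20.6% of all tested genes rose and 20.0% fell. In KO macrophages 24 rose and 6 fell, where 20.2% of all tested genes rose and 19.0% fell. The median log2 change of the members was 0.60 in WT and 0.94 in KO, beside -0.01 and -0.03 over all tested genes. The rise lay in glucose uptake, glycolysis and lactate handling, where 14 of 21 genes rose and 1 fell in WT and 17 rose and 2 fell in KO. Of the 15 HIF regulators and targets, 4 rose and 6 fell in WT, and 7 rose and 4 fell in KO. Between both genotypes, 18 members rose in both, 5 fell in both and 0 were called in opposite directions. In WT and not in KO 2 were called, in KO and not in WT 7, and in neither 4. These joint counts were made for the members alone, so no share over all tested genes stands beside them. A call in 1 genotype alone is no test of a difference. The test of the difference of both responses called 1 of 36 members higher (0.103% of all tested genes) and 0 lower (0.395% of all). The 8 neutrophil markers summed to 4.04 to 6.18 CPM with PBS and 28.1 to 35.5 after stimulation. Of the 6 tested, 2 rose and 0 fell in each genotype, and the median log2 change was -0.86 in each. The 7 markers of T and NK cells summed to 15.1 to 21.5 CPM with PBS and 6.33 to 8.06 after stimulation. Of the 3 tested, 0 rose and 1 fell in each genotype. The part of these cells in the responses was not tested. The plot of responses by gene shows these changes side by side.

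**Figure D1:**
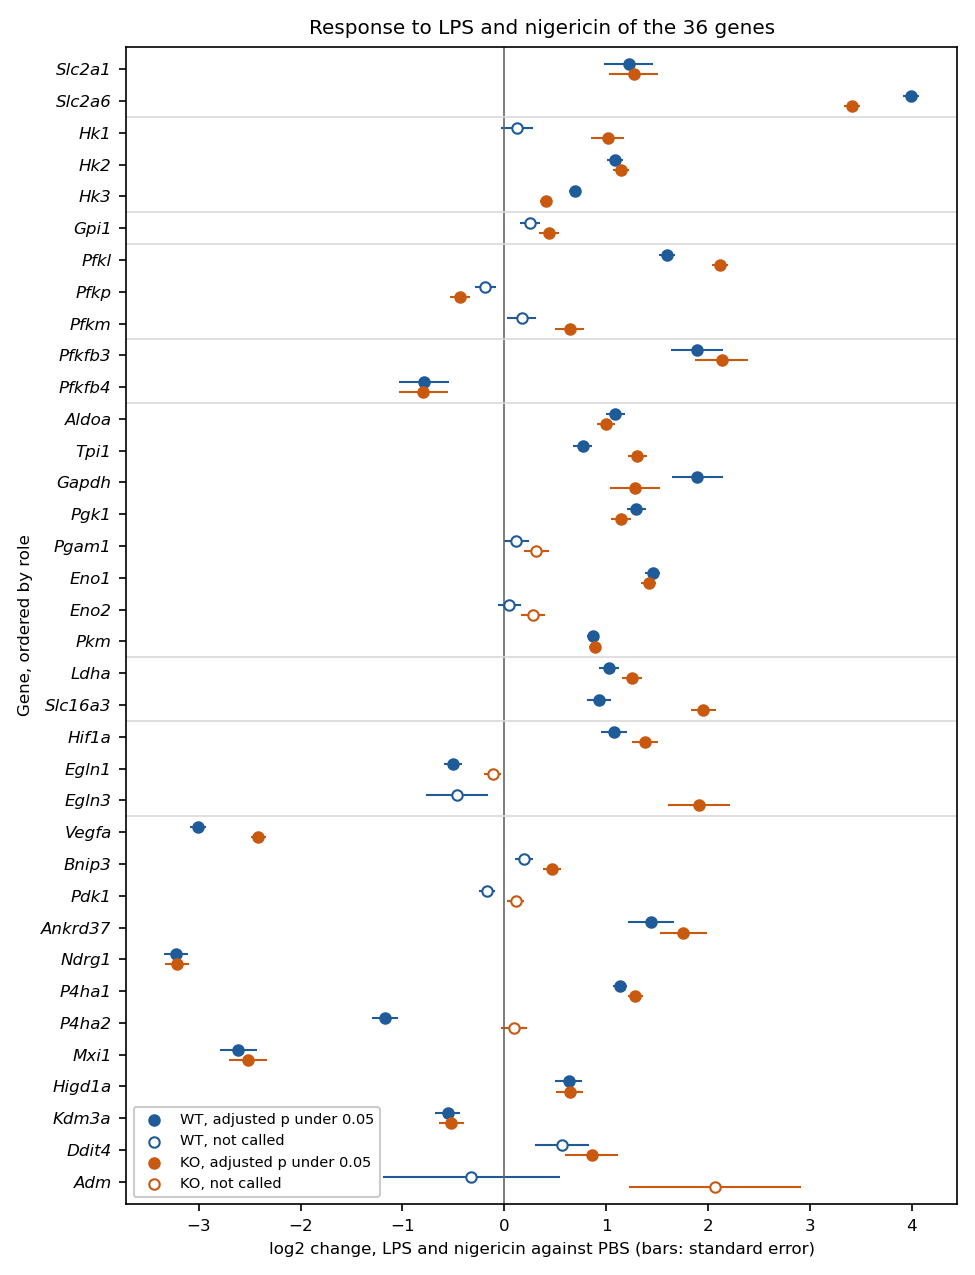
Log2 change after LPS and nigericin against PBS (horizontal axis) of each of the 36 genes (vertical axis, ordered by role) in WT (blue) and KO (orange), with the SE as bars. Filled points are called at an adjusted p under 0.05. Slc2a6 lies farthest to the right and Ndrg1 farthest to the left in both genotypes.

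Glucose enters through facilitative transporters. Slc2a6, which encodes GLUT6, a transporter found on internal membranes, had the largest rise of the members in both genotypes (chr2:27021363-27027998, minus strand, GRCm38 as annotated in GENCODE M21, as for the genes that follow). It stood at 12.8 and 14.2 CPM in WT with PBS, 26.6 and 26.1 in KO with PBS, 210.1 and 219 in stimulated WT, and 282 and 282 in stimulated KO. Every KO library was above every WT library of the same treatment, and every stimulated library was above every PBS library. Stimulation raised it by 3.99 ± 0.08 in WT (15.9-fold, adjusted p = 4.38e-07) and by 3.42 ± 0.08 in KO (10.7-fold, adjusted p = 6.27e-07). Slc2a1, which encodes GLUT1 at the cell surface, stood at 53.2 and 31.3 CPM in WT with PBS, 56.0 and 43.5 in KO with PBS, 97.3 and 99.8 in stimulated WT, and 118 and 122 in stimulated KO. All stimulated libraries were above all PBS libraries, while the PBS libraries of the genotypes overlapped. Its rise was 1.22 ± 0.24 in WT (adjusted p = 0.00639) and 1.27 ± 0.24 in KO (adjusted p = 0.00553).

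Hexokinases trap glucose in the cell as glucose 6-phosphate, and all 3 measured copies rose in KO while Hk2 and Hk3 rose in WT. Hk2, the copy known to be inducible, stood at 62.0 and 59.7 CPM in WT with PBS, 73.3 and 71.9 in KO with PBS, 136 and 121 in stimulated WT, and 157 and 164 in stimulated KO. The groups did not overlap between treatments, and the log2 rise was 1.08 ± 0.08 in WT and 1.14 ± 0.08 in KO (adjusted p = 6.07e-05 and 4.65e-05). Hk3, a copy typical of myeloid cells, stood at 338 and 321 CPM in WT with PBS, 293 and 304 in KO with PBS, 539 and 528 in stimulated WT, and 404 and 389 in stimulated KO. It rose by 0.69 ± 0.06 in WT and by 0.41 ± 0.06 in KO (adjusted p = 0.000144 and 0.0018). Both KO libraries were below both WT libraries under either treatment, though the genotype difference with PBS was not called (adjusted p = 0.325). Hk1, the widely expressed copy, stood at 65.5 and 94.5 CPM in WT with PBS, 64.8 and 66.2 in KO with PBS, 90.5 and 83.9 in stimulated WT, and 129.7 and 135 in stimulated KO. The WT libraries overlapped between treatments and those of KO did not. Hk1 rose in KO by 1.01 ± 0.16 (adjusted p = 0.00243), and its log2 change in WT was 0.12 ± 0.16 (adjusted p = 0.578). Without WT PBS library 2 the WT change was 0.41 and called (adjusted p = 0.0228).

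Gpi1, which turns glucose 6-phosphate into fructose 6-phosphate, stood at 422 and 453 CPM in WT with PBS, 466 and 471 in KO with PBS, 574 and 468 in stimulated WT, and 639 and 634 in stimulated KO. It rose in KO by 0.44 ± 0.10 (adjusted p = 0.0115), a call lost without any 1 of the 4 KO libraries (adjusted p up to 0.0573). In WT the log2 change was 0.25 ± 0.10 (adjusted p = 0.0842), and it was 0.38 and called without stimulated WT library 2 (adjusted p = 0.00879).

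Phosphofructokinase 1 makes the committed step of glycolysis, and its liver-type copy Pfkl was the 1 copy called in both genotypes. Pfkl stood at 43.7 and 44.9 CPM in WT with PBS, 41.9 and 45.7 in KO with PBS, 128 and 139 in stimulated WT, and 193 and 187 in stimulated KO. The PBS libraries of the genotypes overlapped, and after stimulation both KO libraries were above both WT libraries. The log2 rise was 1.59 ± 0.08 in WT (3.02-fold, adjusted p = 1.07e-05) and 2.12 ± 0.08 in KO (4.34-fold, adjusted p = 3.84e-06). Pfkp, the platelet-type copy, stood at 52.0 and 47.9 CPM in WT with PBS, 57.6 and 48.2 in KO with PBS, 44.1 and 43.7 in stimulated WT, and 38.4 and 39.7 in stimulated KO. It was lower in every stimulated library than in every PBS library, and fell in KO by 0.44 ± 0.10 on the log2 scale (adjusted p = 0.0139), a call that did not hold once KO PBS library 1 or 1 of the stimulated KO libraries was removed (adjusted p up to 0.0786). In WT its log2 change was -0.19 ± 0.10 (adjusted p = 0.196). Pfkm, the muscle-type copy, stood at 15.4 and 18.1 CPM in WT with PBS, 11.9 and 14.8 in KO with PBS, 18.3 and 19.5 in stimulated WT, and 19.9 and 21.8 in stimulated KO. It rose in KO by 0.64 ± 0.14 (adjusted p = 0.011), lost without KO PBS library 1 or stimulated KO library 2 (highest adjusted p 0.0614), and its log2 change in WT was 0.17 ± 0.14 (adjusted p = 0.382). Pfkp and Pfkm overlap the genes Pitrm1 and Senp1 on the opposite strand, and no source says whether strand was used in counting, so reads of these pairs may be shared.

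The copies of phosphofructokinase 2 set the level of fructose 2,6-bisphosphate, the activator of phosphofructokinase 1, and moved in opposite directions. Pfkfb3, whose product strongly favours making the activator, stood at 47.9 and 79.2 CPM in WT with PBS, 37.2 and 37.6 in KO with PBS, 269 and 202 in stimulated WT, and 184 and 145 in stimulated KO. Both KO libraries were below both WT libraries under either treatment, though the genotype difference was not called. Stimulation raised Pfkfb3 by 1.89 ± 0.26 in WT (3.71-fold) and by 2.13 ± 0.26 in KO (4.39-fold), with adjusted p = 0.00123 and 0.000748. Pfkfb4 stood at 42.5 and 35.7 CPM in WT with PBS, 42.9 and 51.0 in KO with PBS, 23.4 and 21.8 in stimulated WT, and 34.2 and 19.9 in stimulated KO. Every stimulated library was below every PBS library, and the stimulated KO libraries differed more from each other than those of WT. Pfkfb4 fell by 0.79 ± 0.24 on the log2 scale in each genotype (adjusted p = 0.0389 in WT and 0.0388 in KO). The WT call was lost without any 1 of the 6 libraries other than stimulated KO, and the KO call in every such fit except that without the first stimulated KO library (highest adjusted p 0.157 and 0.158).

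Of the 8 genes of lower glycolysis, from aldolase to pyruvate kinase, the same 6 rose in both genotypes. Aldoa, which encodes aldolase A, stood at 848 and 962 CPM in WT with PBS, 758 and 826 in KO with PBS, 1825 and 2033 in stimulated WT, and 1619 and 1545 in stimulated KO, and the log2 rise was 1.09 ± 0.09 in WT and 1.00 ± 0.09 in KO (adjusted p = 0.000116 and 0.000179). Tpi1, triosephosphate isomerase, stood at 159 and 166 CPM in WT with PBS, 139.6 and 150.1 in KO with PBS, 253 and 301 in stimulated WT, and 355 and 361 in stimulated KO. Its KO libraries were the lower ones with PBS and the higher ones after stimulation. In edgeR neither genotype difference of Tpi1 was called (adjusted p = 0.455 with PBS and 0.0769 after stimulation), nor the difference of responses (0.185). DESeq2, run as an alternative, called it after stimulation (adjusted p = 0.0142) and in the difference of responses (0.0294). Tpi1 rose by 0.77 ± 0.09 in WT and 1.30 ± 0.09 in KO (adjusted p = 0.000693 and 5.71e-05). Pgk1, phosphoglycerate kinase, stood at 206 and 229.9 CPM in WT with PBS, 241 and 219 in KO with PBS, 508 and 564 in stimulated WT, and 535 and 483 in stimulated KO. The genotypes overlapped under both treatments, and Pgk1 rose by 1.30 ± 0.10 in WT and 1.15 ± 0.10 in KO (adjusted p = 7.1e-05 and 0.000128). Eno1, the main enolase, stood at 243 and 231 CPM in WT with PBS, 249 and 254 in KO with PBS, 609 and 690.0 in stimulated WT, and 681 and 663 in stimulated KO. It rose 2.74-fold in WT and 2.67-fold in KO (log2 1.46 ± 0.08 and 1.42 ± 0.08, adjusted p = 1.34e-05 and 1.55e-05).

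Pkm, pyruvate kinase, makes the last step of glycolysis. It stood at 1362 and 1302 CPM in WT with PBS, 1107 and 1110.5 in KO with PBS, 2416 and 2456 in stimulated WT, and 2111 and 1999 in stimulated KO. Stimulation raised it by 0.87 ± 0.06 in WT and 0.89 ± 0.06 in KO (adjusted p = 3.42e-05 and 3.14e-05). Both KO libraries were below both WT libraries under either treatment. In edgeR these genotype differences were not called (adjusted p = 0.0825 with PBS and 0.058 after stimulation), while DESeq2 called both (0.00748 and 0.0140). Pgam1, phosphoglycerate mutase, ranged from 313 to 426 CPM over the 8 libraries, with log2 changes of 0.12 ± 0.12 in WT and 0.31 ± 0.12 in KO (adjusted p = 0.488 and 0.0874). Without stimulated WT library 1 both were called, at 0.31 in each genotype (adjusted p = 0.0166 and 0.00678), and without stimulated WT library 2 the KO change of 0.33 was called (adjusted p = 0.00555). Eno2, the enolase best known from neurons, stood at 17.9 and 15.8 CPM in WT with PBS, 9.94 and 8.97 in KO with PBS, 18.4 and 16.5 in stimulated WT, and 11.5 and 11.5 in stimulated KO. The genotypes did not overlap under either treatment, while the WT libraries overlapped between treatments and the KO libraries with PBS were below the stimulated ones. The stimulation changes of 0.05 ± 0.12 in WT and 0.28 ± 0.12 in KO were not called (adjusted p = 0.769 and 0.101).

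Gapdh, glyceraldehyde 3-phosphate dehydrogenase, needs its own reading, because the mouse genome holds many processed copies of it. It stood at 32.8 and 50.7 CPM in WT with PBS, 62.7 and 65.2 in KO with PBS, 178 and 133 in stimulated WT, and 132 and 179.6 in stimulated KO. The table held 93 genes with at least 95% identity to Gapdh over at least 200 bases, 89 of them annotated as pseudogenes, and these took 87.5 to 92.7% of the combined counts in a library. With the copies added, a choice made after seeing the data, the level was 451 and 474 CPM in WT with PBS, 531 and 523 in KO with PBS, 1533 and 1586 in stimulated WT, and 1626 and 1587 in stimulated KO. The libraries of a group then lay closer together, as the plot of Gapdh with and without its copies shows. Stimulation raised Gapdh alone by 1.90 ± 0.25 in WT and 1.29 ± 0.25 in KO (adjusted p = 0.00109 and 0.00601). With the copies the rise was 1.75 ± 0.06 in WT and 1.61 ± 0.06 in KO (adjusted p = 1.92e-06 and 2.84e-06). The level of Gapdh alone is therefore uncertain. Copies took 11.1 to 14.2% of the combined counts for Eno1, 10.3 to 13.3% for Pgam1, and at most 6.48% for the other members with copies. Genes on the opposite strand also overlap Gapdh (Iffo1) and Tpi1 (Spsb2), with 20.8 and 7.81% of the counts of the pair, and Gm49759 on the same strand overlaps Pkm with 4.21%.

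**Figure D2:**
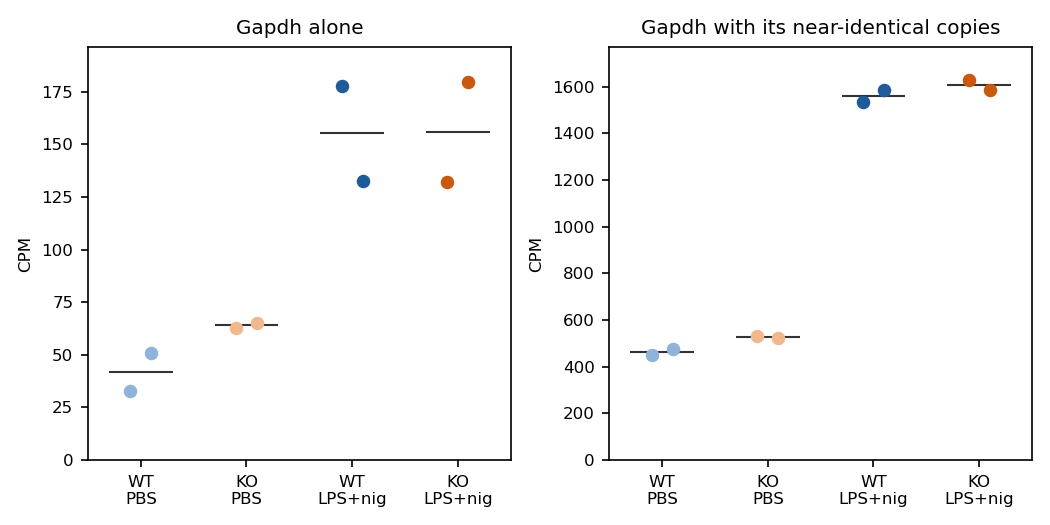
Level in CPM (vertical axes, from 0) in each library (points, with the group mean as a line) of Gapdh alone (left) and of Gapdh with its 93 near-identical copies added (right). The 4 stimulated libraries sit between 132 and 179.6 CPM on the left and between 1533 and 1626 on the right.

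Lactate is made by lactate dehydrogenase A and leaves the cell through the transporter MCT4, the product of Slc16a3 (chr11:120948480-120960868, plus strand). Ldha stood at 363 and 324 CPM in WT with PBS, 339 and 288 in KO with PBS, 668 and 729 in stimulated WT, and 754 and 739.7 in stimulated KO. The genotypes overlapped with PBS, and Ldha rose by 1.03 ± 0.10 in WT and 1.25 ± 0.10 in KO (adjusted p = 0.000262 and 0.000101). Slc16a3 stood at 36.4 and 35.8 CPM in WT with PBS, 34.8 and 26.8 in KO with PBS, 67.1 and 70.3 in stimulated WT, and 119.5 and 119 in stimulated KO. Its KO libraries were the lower ones with PBS and the higher ones after stimulation. The log2 rise was 0.93 ± 0.12 in WT (1.90-fold, adjusted p = 0.000987) and 1.96 ± 0.12 in KO (3.88-fold, adjusted p = 3.27e-05).

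The oxygen-sensing genes did not move together. Hif1a, the HIF-1 alpha subunit, stood at 104 and 85.1 CPM in WT with PBS, 116 and 93.9 in KO with PBS, 203 and 197 in stimulated WT, and 270.3 and 275 in stimulated KO. The genotypes overlapped with PBS, and after stimulation both KO libraries were above both WT libraries. In edgeR this difference after stimulation was not called (adjusted p = 0.107), while DESeq2 called it (adjusted p = 0.0241). Hif1a rose by 1.08 ± 0.13 in WT and 1.38 ± 0.13 in KO (adjusted p = 0.000653 and 0.000209). Egln1, the main prolyl hydroxylase acting on HIF alpha, stood at 41.6 and 42.1 CPM in WT with PBS, 43.6 and 46.6 in KO with PBS, 28.3 and 30.7 in stimulated WT, and 40.2 and 43.1 in stimulated KO. The stimulated WT libraries were below all 6 others. Egln1 fell in WT by 0.51 ± 0.09 on the log2 scale (adjusted p = 0.00324), and its log2 change in KO was -0.11 ± 0.08 (adjusted p = 0.335). Egln3 (chr12:54178981-54203860, minus strand), a prolyl hydroxylase that is itself a HIF target, was low, at 0.921 and 0.918 CPM in WT with PBS, 0.579 and 0.432 in KO with PBS, 0.764 and 0.568 in stimulated WT, and 1.85 and 1.96 in stimulated KO. The stimulated KO libraries were above all 6 others. It rose in KO by 1.91 ± 0.31 (3.76-fold, adjusted p = 0.00272), and its log2 change in WT was -0.46 ± 0.30 (adjusted p = 0.266).

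The 12 HIF targets outside glycolysis split, with 3 that rose and 5 that fell in WT and 5 that rose and 4 that fell in KO. Over all tested genes, 20.6% rose and 20.0% fell in WT, and 20.2% rose and 19.0% fell in KO. The deepest falls among the 12 were those of Ndrg1, Vegfa and Mxi1. Ndrg1 (chr15:66929318-66969640, minus strand), a stress-response gene, stood at 49.4 and 51.7 CPM in WT with PBS, 54.2 and 58.5 in KO with PBS, 5.86 and 4.97 in stimulated WT, and 5.79 and 6.39 in stimulated KO. It fell 9.34-fold in WT and 9.25-fold in KO (log2 -3.22 ± 0.12 and -3.21 ± 0.12, adjusted p = 3.32e-06 and 3.34e-06), and the stimulated genotypes overlapped. Vegfa, the angiogenic growth factor, stood at 209.5 and 214 CPM in WT with PBS, 144 and 142 in KO with PBS, 27.0 and 25.9 in stimulated WT, and 25.5 and 28.1 in stimulated KO. With PBS both KO libraries were lower, and after stimulation the genotypes overlapped. The fall was 8.02-fold in WT and 5.33-fold in KO (log2 -3.00 ± 0.08 and -2.41 ± 0.08, adjusted p = 7.63e-07 and 1.85e-06). Mxi1, which encodes an antagonist of MYC, stood at 153 and 108 CPM in WT with PBS, 86.4 and 69.1 in KO with PBS, 20.8 and 21.9 in stimulated WT, and 13.8 and 13.3 in stimulated KO. Both KO libraries were below both WT libraries under either treatment. In edgeR these genotype differences were not called (adjusted p = 0.113 with PBS and 0.097 after stimulation), while DESeq2 called both (0.00338 and 0.0132). The fall of Mxi1 was 6.10-fold in WT and 5.73-fold in KO (log2 -2.61 ± 0.19 and -2.52 ± 0.19, adjusted p = 5.65e-05 and 6.62e-05).

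Kdm3a, a histone demethylase, also fell. It stood at 75.5 and 65.5 CPM in WT with PBS, 68.4 and 58.9 in KO with PBS, 51.9 and 44.1 in stimulated WT, and 42.7 and 46.1 in stimulated KO. The log2 change was -0.56 ± 0.12 in WT and -0.52 ± 0.12 in KO (adjusted p = 0.0113 and 0.015). The WT call was lost without WT PBS library 1 or stimulated WT library 2 (adjusted p up to 0.0664), and the KO call without library 1 of either KO group (adjusted p up to 0.0878).

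P4ha1, Ankrd37 and Higd1a rose in both genotypes. P4ha1, a catalytic subunit of collagen prolyl 4-hydroxylase, stood at 54.3 and 50.5 CPM in WT with PBS, 57.5 and 57.9 in KO with PBS, 113 and 118 in stimulated WT, and 141 and 140.4 in stimulated KO, and the log2 rise was 1.14 ± 0.07 in WT and 1.29 ± 0.07 in KO (adjusted p = 2.65e-05 and 1.56e-05). Both KO libraries were above both WT libraries under either treatment. In edgeR these genotype differences of P4ha1 were not called (adjusted p = 0.399 with PBS and 0.0687 after stimulation). DESeq2 called the one after stimulation (adjusted p = 0.0116). Ankrd37, an ankyrin repeat gene, stood at 0.905 and 0.827 CPM in WT with PBS, 0.664 and 0.721 in KO with PBS, 2.22 and 2.50 in stimulated WT, and 2.21 and 2.48 in stimulated KO. The stimulated genotypes overlapped, and Ankrd37 rose by 1.44 ± 0.22 in WT and 1.76 ± 0.23 in KO (adjusted p = 0.00226 and 0.000992). Ufsp2, on the opposite strand of the same locus, had 96.5% of the counts of both genes, so the low level of Ankrd37 is uncertain. Higd1a, a mitochondrial inner-membrane protein gene, stood at 13.2 and 13.8 CPM in WT with PBS, 16.1 and 12.7 in KO with PBS, 20.9 and 21.0 in stimulated WT, and 23.6 and 21.4 in stimulated KO. The PBS libraries of the genotypes overlapped, and Higd1a rose by 0.63 ± 0.13 in WT and 0.64 ± 0.13 in KO (adjusted p = 0.00807 and 0.00786).

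Bnip3 and Ddit4 rose in KO and were not called in WT, and the difference of their responses was not called. It was 0.28 ± 0.12 for Bnip3 (adjusted p = 0.492) and 0.29 ± 0.37 for Ddit4 (adjusted p = 0.857). Bnip3, which marks mitochondria for autophagy, stood at 22.2 and 23.0 CPM in WT with PBS, 25.3 and 25.9 in KO with PBS, 24.4 and 27.2 in stimulated WT, and 35.0 and 35.7 in stimulated KO. The stimulated KO libraries were above all others, with a log2 rise of 0.47 ± 0.09 (adjusted p = 0.00519) beside 0.19 ± 0.09 in WT (adjusted p = 0.131). Ddit4, an inhibitor of mTORC1, stood at 2.30 and 3.73 CPM in WT with PBS, 4.02 and 3.03 in KO with PBS, 4.78 and 4.15 in stimulated WT, and 6.66 and 6.10 in stimulated KO. It rose in KO by 0.86 ± 0.26 (adjusted p = 0.039), lost without either KO PBS library or any stimulated library (adjusted p up to 0.176), with scaling by library size alone (0.0575) and with the replicate block (0.0616). Its log2 change in WT was 0.57 ± 0.26 (adjusted p = 0.135), and without WT PBS library 2 it was 0.95 and called (adjusted p = 0.0361).

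Pdk1 and Adm were called in neither genotype. Pdk1, a kinase that shuts pyruvate dehydrogenase, stood at 26.1 and 25.8 CPM in WT with PBS, 30.6 and 30.7 in KO with PBS, 22.5 and 23.6 in stimulated WT, and 31.8 and 34.4 in stimulated KO. Both KO libraries were above both WT libraries under either treatment, though the genotype difference with PBS was not called (adjusted p = 0.228). The stimulation changes of Pdk1 were -0.17 ± 0.08 in WT and 0.11 ± 0.08 in KO (adjusted p = 0.147 and 0.331). Adm, adrenomedullin, ranged from 0.0614 to 1.25 CPM over the libraries, and the 2 stimulated KO libraries were the highest at 1.25 and 0.974. Its log2 change in KO was 2.07 ± 0.84 (adjusted p = 0.096), called once 1 of the WT PBS libraries was removed (adjusted p = 0.021 and 0.0245).

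P4ha2 (chr11:54100095-54131665, plus strand), the other catalytic subunit of collagen prolyl 4-hydroxylase, was the 1 member with a called difference between the responses of the genotypes. It stood at 8.78 and 8.80 CPM in WT with PBS, 10.4 and 11.4 in KO with PBS, 4.07 and 3.73 in stimulated WT, and 12.4 and 10.9 in stimulated KO. The stimulated WT libraries were below all 6 others, and both KO groups overlapped. P4ha2 fell 2.25-fold in WT (log2 -1.17 ± 0.13, adjusted p = 0.00046), and its log2 change in KO was 0.10 ± 0.13 (adjusted p = 0.59). In the test of the difference of both responses, 1 of 36 members was called higher (0.103% of all tested genes) and 0 lower (0.395% of all). The call was P4ha2, at 1.27 ± 0.18 (adjusted p = 0.0466), and it was lost when any 1 of the 8 libraries was left out (adjusted p up to 0.180), without the filter on low counts (0.0616) and with the replicate block (0.0864). At an unadjusted p under 0.05, edgeR's test gave 9 members higher and 2 lower, where 4.80% of all tested genes were higher and 5.91% lower. After adjustment DESeq2 called 7 members higher and 1 lower, beside 1.12% and 1.72% of the 17131 genes to which it gave an adjusted p.

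Other members came near that threshold without reaching it. The difference of responses, KO minus WT, was 1.03 ± 0.17 for Slc16a3 (adjusted p = 0.0774) and 0.59 ± 0.10 for Vegfa (adjusted p = 0.0847). It was -0.58 ± 0.10 for Slc2a6 (adjusted p = 0.0847) and 2.38 ± 0.43 for Egln3 (adjusted p = 0.0876). None of these 4 passed in edgeR's fit of all 8 libraries, while DESeq2 called all of them, with adjusted p = 3.87e-05 for Slc16a3, 0.000694 for Vegfa, 0.00132 for Slc2a6 and 0.0111 for Egln3. In edgeR, Slc16a3 passed without KO PBS library 1 (log2 1.23, adjusted p = 0.0313). Hk1, at 0.89 with all libraries (adjusted p = 0.196), passed without WT PBS library 1 (log2 1.13, adjusted p = 0.0468).

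**Figure D3:**
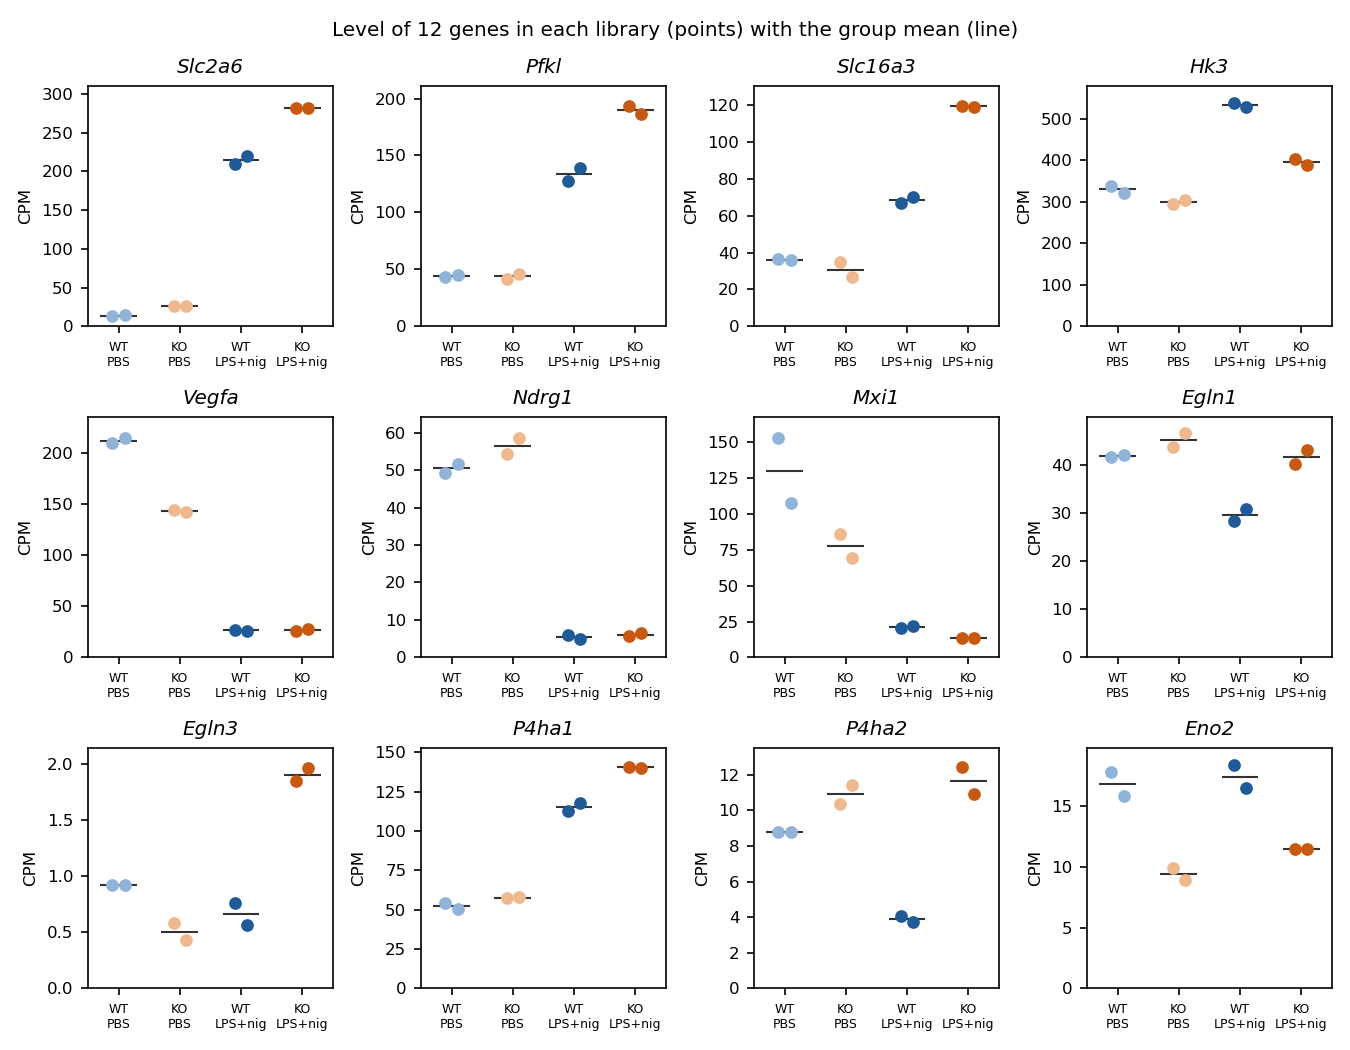
Level in CPM (vertical axes, each from 0) of 12 genes in each of the 8 libraries (points), with the mean of the 2 libraries of a group as a line. Stimulated KO libraries are the highest for Slc2a6, Pfkl, Slc16a3 and Egln3, and stimulated WT libraries are the lowest for Egln1 and P4ha2.

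With PBS, KO and WT macrophages differed in few of these genes: 1 of 36 was higher in KO (1.20% of all tested genes were) and 2 were lower (0.355% of all). The median log2 difference of the members was 0.05, beside 0 over all tested genes. Slc2a6 was higher in KO by 0.97 ± 0.07 (1.96-fold, adjusted p = 0.0025). Eno2 was lower in KO by 1.78-fold (log2 -0.83 ± 0.12, adjusted p = 0.0237), which was lost without any 1 library other than the stimulated WT ones (adjusted p up to 0.136). Vegfa was lower by 1.48-fold (log2 -0.57 ± 0.07, adjusted p = 0.0175), which was lost without any 1 of the 4 PBS libraries (adjusted p up to 0.107). The Slc2a6 call held in all 8 fits that left out a library.

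After stimulation 8 members were higher in KO, where 2.91% of all tested genes were, and 2 were lower, where 2.01% of all were. The median log2 difference was 0.24, beside 0 over all tested genes to 2 decimals. The higher ones were 2 membrane transporters, Slc2a6 and Slc16a3, the phosphofructokinase Pfkl, the HIF prolyl hydroxylases Egln1 and Egln3, and the HIF targets Bnip3, Pdk1 and P4ha2. The lower ones were Hk3 and Eno2. P4ha2 had the largest called difference, 1.58 ± 0.13 (2.99-fold, adjusted p = 0.00238), and was the 1 call that held in all 8 fits that left out a library (adjusted p up to 0.0242). Slc16a3 was 1.74-fold higher (log2 0.80 ± 0.12, adjusted p = 0.017) and Pfkl 1.42-fold (log2 0.51 ± 0.08, adjusted p = 0.0173). The Slc16a3 call was lost without any 1 stimulated library (adjusted p up to 0.0993), and that of Pfkl once stimulated WT library 1 or 1 of the stimulated KO libraries was removed (adjusted p up to 0.121). Egln3 was 2.86-fold higher (log2 1.51 ± 0.30, adjusted p = 0.0411), lost without any 1 library (adjusted p up to 0.169), without the filter (0.0530) and with the replicate block (0.0604).

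The remaining calls were 4 members higher and 2 lower in KO. Slc2a6 was higher by 0.39 ± 0.07 (adjusted p = 0.0301), lost without any 1 library other than the WT PBS ones (adjusted p up to 0.163). Egln1 was higher by 0.50 ± 0.09 (adjusted p = 0.0257), lost once library 1 of a WT group or 1 of the stimulated KO libraries was removed (adjusted p up to 0.144). Pdk1 was higher by 0.52 ± 0.08 (adjusted p = 0.0196), lost without any 1 stimulated library (adjusted p up to 0.117). For Bnip3 the difference was 0.46 ± 0.09 (adjusted p = 0.0364), lost without any 1 library other than stimulated WT library 2 (adjusted p up to 0.163) without the filter (0.0533) and with its near-identical copies added (adjusted p = 0.0537). Hk3 was lower by 1.35-fold (log2 -0.43 ± 0.06, adjusted p = 0.0134), lost once 1 of the stimulated KO libraries was removed (adjusted p up to 0.101). Eno2 was lower by 1.52-fold (log2 -0.60 ± 0.12, adjusted p = 0.0379), lost without any 1 library (adjusted p up to 0.173), without the filter (0.0516) and with scaling by library size alone (0.0862). Of these differences, that of P4ha2 alone kept its call without each library in turn. Further members that edgeR did not call with all libraries were called higher in KO after stimulation when 1 was left out. These were Hk1 without either WT PBS library (adjusted p = 0.0198 and 0.0185), Gpi1 without stimulated WT library 1 (0.0373), and Tpi1 and Pgam1 without stimulated WT library 2 (both 0.0391).

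Markers of fibroblasts and stroma moved with the genotype difference after stimulation. Of their 8 genes, 7 were higher in stimulated KO than in stimulated WT, 2 were higher with PBS and 2 had a called difference of responses. Their summed level was 130.1 and 127 CPM in stimulated WT against 368 and 329 in stimulated KO. None of the 8 was at 0 in all libraries. The 6 markers of B and plasma cells also summed higher in KO, at 2.35 to 3.29 CPM against 0.327 to 0.451 in WT. The part of these cells in the differences of P4ha2 and the other members was not tested.

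**Figure D4:**
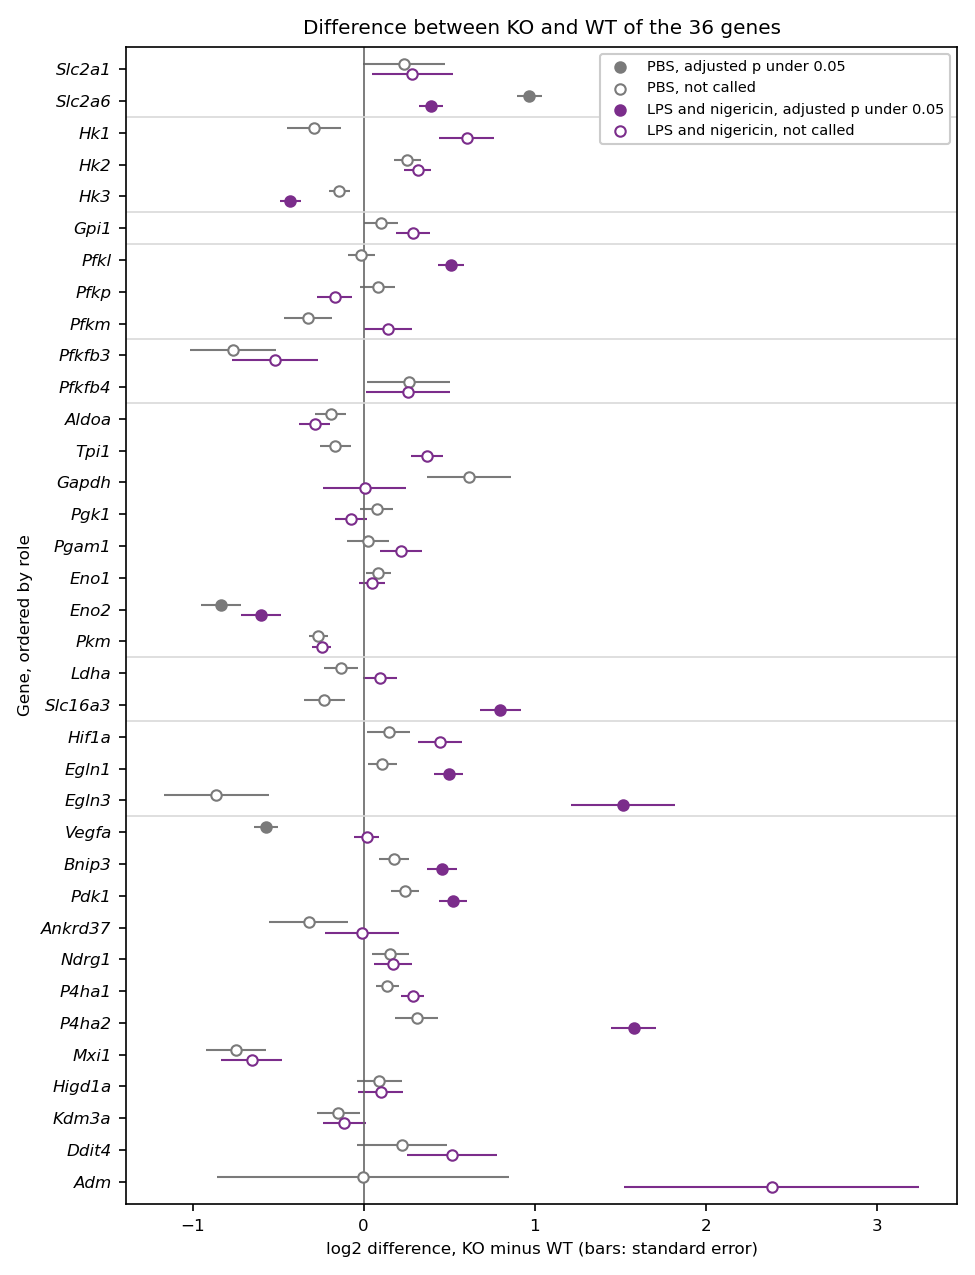
Log2 difference between KO and WT (horizontal axis) of each of the 36 genes (vertical axis, ordered by role) with PBS (grey) and after LPS and nigericin (purple), with the SE as bars. Filled points are called at an adjusted p under 0.05, 3 with PBS and 10 after stimulation.

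The makeup of enzymes that have several gene copies was compared as the share of each copy in the counts per exon length, summed over the copies among the 36 genes alone. Hk3 held most of the hexokinase signal, at 82.0% ± 2.17 (SD, n = 2) in WT with PBS, 80.3% ± 0.423 in KO with PBS, 82.0% ± 0.853 in stimulated WT and 71.8% ± 1.17 in stimulated KO. The lower share in stimulated KO went with a higher one of Hk2, 17.9% ± 0.766 against 12.2% ± 0.691 in stimulated WT, and of Hk1, 10.3% ± 0.406 against 5.78% ± 0.162. Among the phosphofructokinases, Pfkl held 43.1% ± 0.538 in WT with PBS and 45.2% ± 1.17 in KO with PBS, and 69.1% ± 0.739 and 75.7% ± 1.42 after stimulation. Pfkfb3 held 50.4% ± 11.9 of the summed Pfkfb3 and Pfkfb4 signal, which leaves out Pfkfb2, in WT with PBS and 34.1% ± 2.55 in KO with PBS, and 86.9% ± 1.76 and 80.0% ± 3.43 after stimulation. Both pairs of libraries with PBS were below both pairs after stimulation for Pfkl and Pfkfb3. Slc2a6 held 26.9% ± 8.67 and 36.9% ± 3.86 of the 2 glucose transporters with PBS in WT and KO, and 70.4% ± 0.249 and 72.0% ± 0.350 after stimulation. Eno1 held 92.5 to 98.1% of the enolase signal in the 4 group means. P4ha2 held 9.97% ± 0.483 of the collagen prolyl 4-hydroxylase signal in WT with PBS, 11.1% ± 0.633 in KO with PBS, 2.18% ± 0.201 in stimulated WT and 5.18% ± 0.442 in stimulated KO. With the length of the longest transcript the P4ha2 shares were 18.2, 20.0, 4.28 and 9.87% in the same order. These shares depend on the length taken for each gene, and 44 of the 64 moved by over 1 SD when the longest transcript replaced the union of exons. With 2 libraries against 2, the smallest p that an exact two-sided permutation test of a share can give is 0.333, so none was tested.

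**Figure D5:**
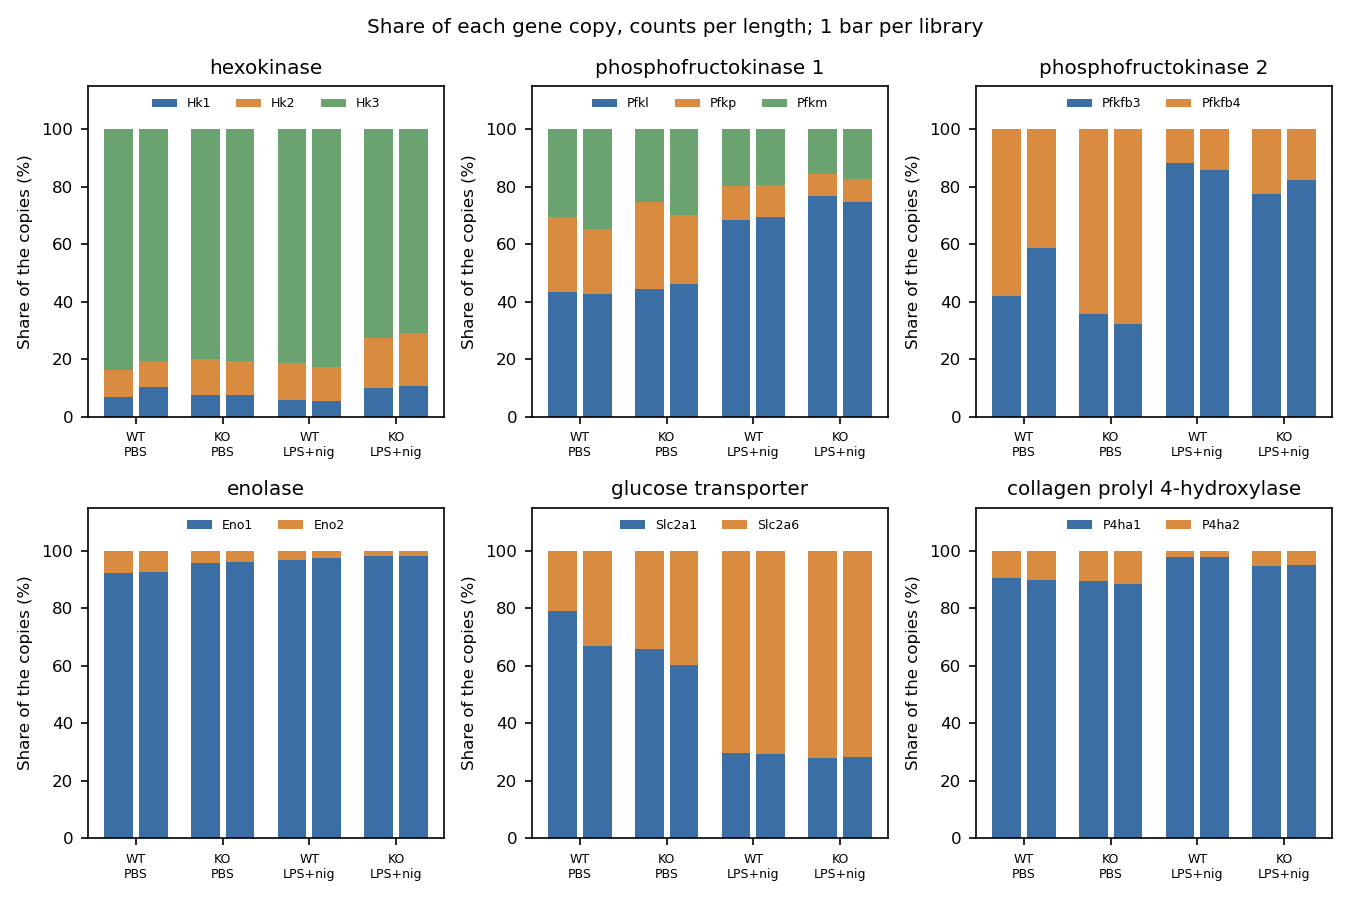
Share in percent (vertical axes) of each gene copy in the summed counts per exon length of 6 enzyme or transporter families, with 1 bar per library and 2 bars per group. Pfkl, Pfkfb3 and Slc2a6 take larger shares in all 4 stimulated libraries than in any PBS library.

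Genes of the same pathways outside the 36 were counted from lists given by role. The counts of all these lists stand beside the shares over all tested genes. Of the latter, 20.6% rose and 20.0% fell in WT, and 20.2% rose and 19.0% fell in KO. In KO against WT, 1.20% were higher and 0.355% lower with PBS, and 2.91% and 2.01% after stimulation. Of 24 further glycolysis and lactate genes 15 were tested, and 2 rose and 6 fell in WT, and 3 rose and 6 fell in KO. Galm, galactose mutarotase, changed by -1.04 ± 0.09 in WT on the log2 scale. Galm also fell in KO, from 32.1 and 32.6 CPM with PBS to 15.7 and 16.7 after stimulation (adjusted p = 0.000165). Slc2a3, the transporter GLUT3, changed by -1.90 ± 0.17 in KO (adjusted p = 0.000171). In WT Slc2a3 stood at 6.15 and 5.87 CPM with PBS and at 3.49 and 4.18 after stimulation. The genes that rose in WT were Adpgk (log2 0.71 ± 0.08) and Tigar (log2 0.98 ± 0.11). In KO Adpgk stood at 39.5 and 37.3 CPM with PBS and 52.0 and 56.0 after stimulation, and Tigar rose by 0.88 ± 0.11. Slc2a3 was lower in stimulated KO than in stimulated WT (log2 -1.13 ± 0.17, adjusted p = 0.0165), opposite in direction to Slc2a6. Of 14 further HIF pathway genes, 5 rose and 2 fell in WT, and 4 rose and 3 fell in KO. Epas1, the HIF-2 alpha subunit, had its 4 PBS libraries between 16.4 and 24.0 CPM and its 4 stimulated libraries between 1.0 and 3.4 CPM. It fell while Hif1a rose, with log2 changes of -4.10 ± 0.25 in WT and -2.40 ± 0.22 in KO (adjusted p = 2.5e-05 and 0.000211), and was higher in stimulated KO than WT by 1.24 ± 0.23 (adjusted p = 0.0347).

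Of 27 further HIF targets tested, 12 rose and 10 fell in WT, and 13 rose and 10 fell in KO. Angptl4, a lipoprotein lipase inhibitor, fell (log2 -5.25 ± 0.20 in WT and -5.06 ± 0.20 in KO), and so did Plin2, a lipid droplet coat protein (log2 -2.41 ± 0.10 and -2.37 ± 0.10). Among those that rose, Narf changed by 1.39 ± 0.08 in KO on the log2 scale. In WT it stood at 23.4 and 22.0 CPM with PBS and at 63.2 and 59.8 after stimulation. In stimulated cells 5 of the 27 were higher in KO and 1 was lower, beside 2.91% and 2.01% of all tested genes. The lower one was Bnip3l (log2 -0.55 ± 0.06, adjusted p = 0.00772). The transcription factor Bhlhe40 was higher by 1.16 ± 0.09 (adjusted p = 0.002), Ak4, a mitochondrial adenylate kinase, by 1.73 ± 0.21 (adjusted p = 0.00846), and Lox, a collagen crosslinking enzyme, by 1.09 ± 0.12 (adjusted p = 0.00614). With PBS 1 of the 27, Nfil3, was lower (log2 -0.64 ± 0.11, adjusted p = 0.043).

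Routes that branch from glycolysis moved as follows. Of 13 genes of pyruvate entry into mitochondria, 7 rose and 3 fell in WT, and 8 rose and 3 fell in KO, with Pcx, pyruvate carboxylase, up by 2.12 ± 0.16 in WT and 2.04 ± 0.16 in KO. Pdk2, another kinase that shuts pyruvate dehydrogenase, fell (log2 -1.15 ± 0.09 in WT and -1.39 ± 0.09 in KO), as did Pdp1, a phosphatase that opposes these kinases (log2 -2.22 ± 0.13 and -1.86 ± 0.13). Of 17 citrate cycle genes, 9 rose and 1 fell in each genotype, with Mdh2, malate dehydrogenase, up by 1.34 ± 0.08 in WT and 1.48 ± 0.08 in KO. Ogdh, the oxoglutarate dehydrogenase subunit, was higher in KO by 0.37 ± 0.06 with PBS and by 0.68 ± 0.06 after stimulation (adjusted p = 0.0404 and 0.0034). Of 9 pentose phosphate genes, 5 rose and 1 fell in WT, and 3 rose and 3 fell in KO, and after stimulation 3 were lower in KO. These were Taldo1, transaldolase (log2 -0.70 ± 0.07, adjusted p = 0.00382), Pgd (log2 -0.46 ± 0.06, adjusted p = 0.0114) and G6pdx (log2 -0.45 ± 0.07, adjusted p = 0.0162), and the latter pair encode the NADPH-making steps. Pgd stood at 597 and 607 CPM in WT with PBS, 696 and 711 in KO with PBS, 805 and 875 in stimulated WT, and 611 and 613 in stimulated KO. Its KO libraries were the higher ones with PBS and the lower ones after stimulation, and the difference of responses was -0.68 ± 0.09 (adjusted p = 0.0322). Whether this and the other calls of pathway genes outside the members hold when a library is left out is not reported here. Most genotype calls among the members did not hold in all such fits.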

How the data were processed

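RNA of 8 macrophage libraries was sequenced, and the authors deposited 1 whole-number count per gene and library, which was used as deposited. The submitters' processing notes name mm10, Bowtie2, Trimmomatic and edgeR. Their versions, and the counting tool with its annotation and use of strand, are not given in the sources used. Low genes were removed with filterByExpr of edgeR (count minimum 10, total minimum 15). A single fit in edgeR 4.0.16 (R 4.3.3) held all 8 libraries, with TMM factors and a coefficient for each group, which leaves 4 residual degrees of freedom. Each of 5 contrasts was tested by quasi-likelihood F tests with Benjamini-Hochberg adjustment over 17470 genes at 0.05. The procedure was run on simulated counts, where only the response in WT was checked, so it says nothing of the other contrasts. SE is the log2 change over the root of F. Across genes the biological coefficient of variation was 0.215, and chi-square per degree of freedom between libraries of a group was 39.3 to 81.1, so no library repeats another.

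Named genes are the 36 members, Mettl3, and some genes of the pathway lists. The latter are among the 4 genes of a list with the smallest adjusted p in a contrast, and not every such gene is named. Upstream stretches were taken in order of adjusted p in WT among lactate, HIF regulator and HIF target members with the motif. Members and lists were chosen with earlier results of these data known. Aldoa has 2 Ensembl identifiers, and the one whose start equals that of RefSeq's Aldoa was used. Near-identical copies were found with blastn 2.17.0. Alternatives were DESeq2 1.42.0, its size factors, library size alone, no filter, a replicate block, copies added, and each library left out. Some single markers of other cell types are not reported here.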

Additional observations from a re-analysis of the deposited data

Results flagged for a closer look

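The response of P4ha2 to LPS and nigericin differed between genotypes by the test of the difference itself. KO minus WT was 1.27 on the log2 scale (SE 0.18, edgeR's quasi-likelihood test, adjusted p = 0.0466). The fall in WT was seen in 2 of 2 stimulated libraries, and the stimulated KO libraries lay within or above the range of KO with PBS. The call was lost when any 1 of the 8 libraries was left out, with adjusted p up to 0.180, and also without the filter on low counts (0.0616) and with the replicate block (0.0864).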

How the results depend on the processing

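No call of a member changed direction under any alternative run. Most member calls of the responses to stimulation held in all 8 fits that left out a library. Most genotype calls, and the 1 call in the difference of responses, did not. DESeq2 called more. After stimulation it called 943 genes higher and 711 lower in KO than in WT (508 and 352 with edgeR), among them 13 and 4 members (8 and 2). With PBS it called 572 higher and 304 lower (209 and 62), among them 5 members lower (2). In the difference of responses it called 192 higher and 294 lower (18 and 69), among them 7 members higher and 1 lower (1 and 0). With library size alone, 1044 genes were higher and 236 lower in KO after stimulation, with 12 members higher and 1 lower, since the median of all genes shifted by 0.13 on the log2 scale. The median shifted by -0.20 in the WT response, where 2713 genes rose and 4720 fell, by -0.11 in the KO response (3150 and 3776), and by 0.10 in the difference of responses. Without a filter, 12 genes and 0 members were higher in the difference, and 1 member was lower in KO after stimulation.

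The replicate numbers share only a number, and deviations of same-numbered libraries correlated at 0.20 between the PBS groups and at -0.02 to 0.07 otherwise. With the replicate block, 12 genes were higher and 48 lower in the difference of responses, 0 members were called there, and 3 member calls were lost. Leaving out each library in turn gave 81 to 362 genes higher and 77 to 271 lower in KO after stimulation (members 1 to 7 and 0 to 1), 56 to 196 and 15 to 69 with PBS (members lower 0 to 2), and 5 to 31 and 15 to 63 in the difference (members higher 0 to 1). In the responses, 3 to 5 members fell in KO. With 2 libraries per group, differences of the lowest member, Adm, had an SE of 0.84 to 1.21 on the log2 scale.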
